A study of Phelipanche ramosa with 8 samples.

Results

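Seed storage cupins of *Phelipanche ramosa*, a broomrape that lives wholly on its host, were examined through 4 selected contigs of the 52543 with a sense probe on the arrays. They were the contigs Pram_11310, Pram_12193 and Pram_13641, matched to the Arabidopsis gene CRA1 (AT5G44120), and Pram_01577, matched to PAP85 (AT3G22640). The members were taken by contig identifier from the hormone-related gene list of the study, which was drawn up in part from these samples and is therefore not independent evidence of a direction. That list holds 1 further CRA1 contig, Pram_31070, and 1 further PAP85 contig, Pram_31475, whose values are given beside those of the members. Contigs outside the list were not searched for storage cupins.

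Cupins are proteins built on a small beta-barrel, and the storage globulins of seeds are among them. In Arabidopsis, CRA1 encodes a cruciferin, a storage globulin of the 11S class, and PAP85 encodes a vicilin-like globulin of the 7S class. Such proteins are laid down in the embryo during seed maturation, when abscisic acid promotes the expression of their genes, and are broken down after germination to feed the seedling. A broomrape seedling has no photosynthesis of its own and depends on its seed reserves until it is attached to a host root.

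The arrays compared wild-type germinated seeds treated for 12 h with *Brassica napus* root exudates (4 samples) with wild-type germinated seeds kept for 12 h in incubation medium (control, 4 samples). Seeds of both groups had been conditioned for 7 days at 21 °C in the dark and germinated for 4 days with 1e-07 M of the synthetic germination stimulant rac-GR24. Each array held 1 exudate and 1 control sample, given the same replicate number in the labels, with exudate in Cy3 (green) on arrays 1 and 2 and in Cy5 (red) on arrays 3 and 4. Whole germinated seeds were extracted, so that fewer cells of a type and less RNA per cell cannot be told apart. The labels give 4 independently grown replicates per group and exudates that were diluted, whereas the methods give 2 biological replicates in a dye switch and crude exudates. If dye swaps of the same extracts were counted as replicates, the p-values measure technical spread in part. Treatment for 24 h is not analysed here.

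On arrays the precision depends on how far the signal stands above background. Median channel intensities ranged from 130.5 to 241 and median local backgrounds from 49 to 157. The share of sense probes well above background ranged from 37.5% to 69.3%, and was lowest in the exudate channel of array 3. In the table of processed values that the authors deposited, the exudate columns numbered 1, 2, 3 and 4 followed the exudate channels of arrays 3, 4, 1 and 2, with r between 0.971 and 0.995, and each control column followed its own array. Which numbering of the exudate samples is right could not be settled. The values below come from the scanner output, in which both channels of an array are tied by the scan itself.

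All 4 contigs were detected in control germinated seeds. Their sense probes were well above background on 4 of 4 arrays in the control channel, and none of their spots was saturated. The median intensity in control samples was 8937, 7243, 4076 and 7896 on arrays 1 to 4 for Pram_13641, which was between 46.2 and 154.8 times the local background of its spots. For Pram_01577 the control intensity was 2221, 1284, 649.5 and 1424, or 8.20 to 30.3 times the local background. The control intensities of Pram_11310 (2490, 2612, 1060 and 2148) and Pram_12193 (2796, 2408, 1122 and 3069) were 15.0 to 42.1 and 15.0 to 60.8 times the local background, in that order. Array 3 was the dimmest of the control channels for all 4 contigs. These were the only seed-specific genes with a name here, and their detection in every control channel was the sole check of the seed label that the arrays allowed. Brightness depends on the probe, so that no contig was ranked against another by its level.

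Transcripts of all 4 storage cupin contigs were lower after 12 h of exudate treatment. The mean level in exudate samples was between 23.2% and 37.0% of that in control samples. No sample from before the treatment was compared, so that a loss under exudate and a rise in control seeds cannot be told apart. The 3 CRA1 contigs, which encode the cruciferin-like proteins, changed by a mean log2 ratio (exudate over control) of -1.92 to -2.11, and the PAP85 contig by -1.43. On each of the 4 arrays all 4 ratios were below 0, over a range from -3.02 to -0.51. A contig was called lower with an adjusted p below 0.05 in limma's test and a fold change of at most 0.75. By this rule 4 of 4 members were lower, against 12.8% of the 30641 sense probes tested (3922 probes), a background in which the members are included. Testing required a signal well above background in all 4 samples of 1 group or of both. Pram_11310, Pram_12193 and Pram_01577 passed this filter through the control group alone, where they were high, so that their count lends no support of its own. With both channels required above background, Pram_13641 was the 1 member that could be tested, and it was called lower. In that fit 13% of the 19338 sense probes tested were called lower.

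Levels below are normalised log2 intensities of single channels. Among the CRA1 contigs, Pram_11310 had levels of 8.19, 9.88, 7.92 and 8.61 in the exudate samples of arrays 1 to 4, against 10.95, 10.99, 9.86 and 10.49 in the control samples. The groups met at their edges, since the exudate sample of array 2 was slightly above the control sample of array 3. The mean log2 ratio of Pram_11310 was -1.92 ± 0.67 (SD, n = 4 arrays), with a standard error of 0.24, a 95% interval from -2.45 to -1.39 and a limma adjusted p of 9.126e-04.

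Pram_12193 had levels of 8.15, 9.20, 8.08 and 9.07 in the exudate samples, against 11.13, 10.88, 9.95 and 10.98 in the control samples. Every exudate sample lay below every control sample. This contig had the lowest mean ratio of the 4, -2.11 ± 0.59 (SD, n = 4 arrays), with a 95% interval from -2.61 to -1.61 and a limma adjusted p of 3.367e-04.

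Pram_13641 had levels of 9.83, 11.19, 9.96 and 10.62 in the exudate samples, against 12.85, 12.48, 11.93 and 12.37 in the control samples. The groups did not overlap, and the gap between the highest exudate and the lowest control sample was 0.75 on the log2 scale. Its mean log2 ratio was -2.01 ± 0.73 (SD, n = 4 arrays), with a 95% interval from -2.56 to -1.46 and a limma adjusted p of 8.672e-04. It was also the sole member that was well above background on 4 of 4 arrays in the exudate channel.

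The PAP85 contig Pram_01577, whose Arabidopsis counterpart encodes the vicilin-like globulin, had levels of 8.85, 9.47, 7.68 and 8.16 in the exudate samples, against 10.79, 9.98, 9.19 and 9.94 in the control samples. The groups overlapped, because the exudate sample of array 2 was above the control sample of array 3. Within each array, however, the exudate channel was the lower one. The mean log2 ratio was -1.43 ± 0.64 (SD, n = 4 arrays), with a 95% interval from -1.95 to -0.91 and a limma adjusted p of 0.004287. Without the array as a block this call was lost, with a limma adjusted p of 0.0582 at the same mean ratio.

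**Figure D1:**
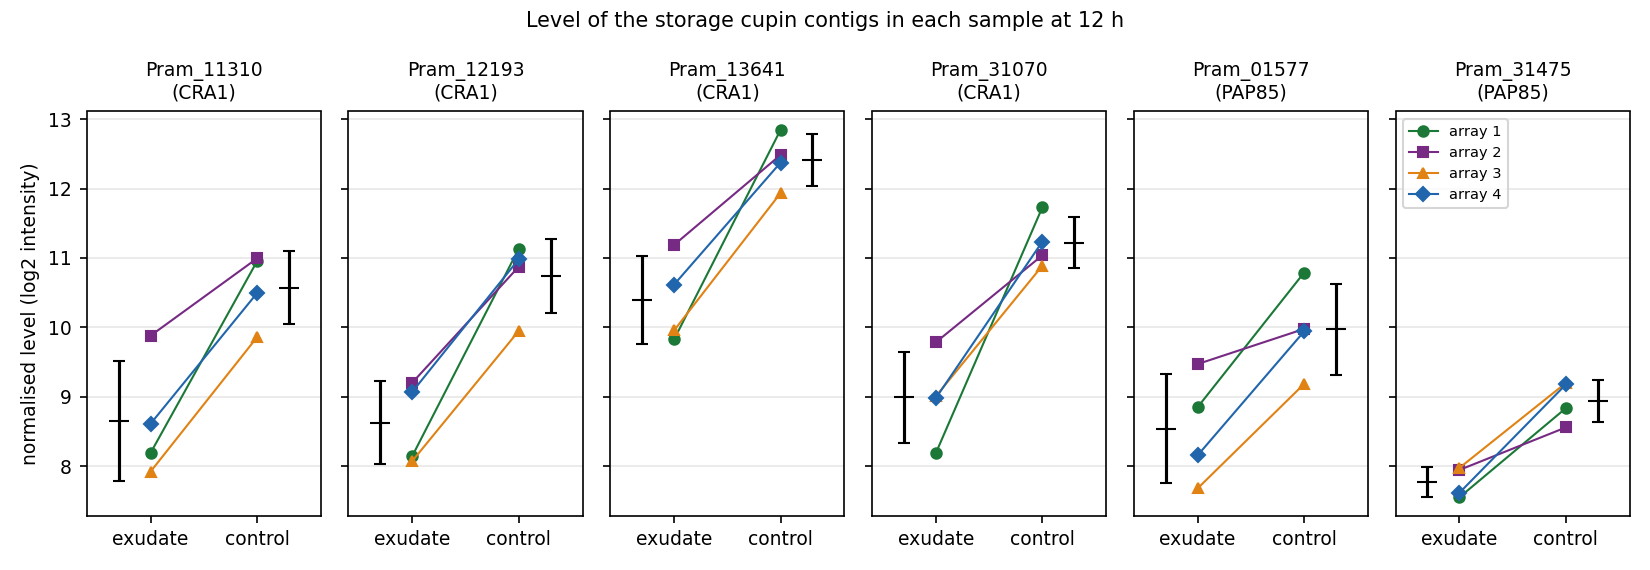
Normalised level (log2 intensity) of each storage cupin contig in the 4 exudate and the 4 control samples at 12 h, with lines joining the samples of an array and bars for mean ± SD (n = 4). Every line runs upward from exudate to control, and the groups do not overlap for Pram_12193, Pram_13641, Pram_31070 and Pram_31475. Such a separation, with exudate below control, was found for 15.1% of the tested sense probes.

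Groups without overlap, with exudate below control, were thus found for 2 of the 4 members (Pram_12193 and Pram_13641), against 15.1% of the tested sense probes. On array 3 the exudate signal of Pram_01577 was well above background in 0 of 2 spots, and that of Pram_11310 and Pram_12193 in 1 of 2 spots. The ratios of these 3 contigs on that array rest on exudate signals near background, and the offset used in the background correction draws such ratios toward 0. Without replicate 3 the ratios of the 4 members were between -2.19 and -1.41, and all 4 remained called lower. Of the sense probes tested without that replicate, 5.83% were called lower.

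The ratio differed among arrays more than among the CRA1 contigs. On array 1 the 3 CRA1 ratios averaged -2.92, on array 2 -1.36, on array 3 -1.93 and on array 4 -1.85. Within an array the 3 contigs lay within 0.26, 0.56, 0.10 and 0.15 of each other on the log2 scale. Array 2 gave the ratio nearest to 0 for all 4 members and array 1 the lowest ratio, although both arrays had the same dye orientation. The exudate sample of array 2 was the highest of its group for each of the 4 members. In the orientation with exudate in Cy3 the mean ratio of a member was between -2.33 and -1.22, and with exudate in Cy5 between -1.91 and -1.64. The 2 spots of a sense probe differed by at most 0.79 in their log2 ratio, for Pram_11310 on array 3. For the other 3 members they differed by at most 0.25.

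The 3 CRA1 contigs share 1 best match in Arabidopsis. Their probe sequences were not used here, so that the extent to which the probes capture the same transcripts was not tested, and their ratios are not independent measurements of a gene. The mean ratio of the CRA1 contigs minus the PAP85 ratio was -0.98, -0.85, -0.43 and -0.06 on arrays 1 to 4. It was below 0 on every array, and close to 0 on array 4. The mean difference was -0.58 ± 0.42 (SD, n = 4 arrays). An exact sign permutation test gave a two-sided p of 0.125, the smallest that 4 arrays allow, and 0.292 after Benjamini-Hochberg adjustment over the 7 differences examined. A difference between the 11S and the 7S contigs was therefore not shown by this test, which could not have passed 0.05.

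Both contigs of the same annotation outside the members were lower as well. Pram_31070, the fourth CRA1 contig, had array ratios of -3.54, -1.25, -1.88 and -2.25, averaging -2.23 ± 0.96 (SD, n = 4; limma adjusted p = 0.001263). Pram_31475, the second PAP85 contig, had array ratios of -1.28, -0.61, -1.22 and -1.56, averaging -1.17 ± 0.40 (SD, n = 4; limma adjusted p = 0.005165). Neither contig overlapped between the groups, a separation with exudate below control that 15.1% of the tested sense probes showed. The CRA1 mean of the members differed from Pram_31070 by 0.22 ± 0.35 (SD, exact two-sided p = 0.5). Pram_01577 differed from Pram_31475 by -0.26 ± 0.31 (SD, exact two-sided p = 0.25). Each mean difference was smaller than its SD over arrays. The smallest p that these tests allow is 0.125, so that they could not have shown a difference. With these, 6 of 6 contigs annotated CRA1 or PAP85 were called lower, against 12.8% of the tested sense probes. Their median log2 ratio was -1.97, against a median of -0.14 over all tested sense probes. Both further contigs come from the same list, and Pram_31475 passed the filter through the control group alone. Their calls therefore add no independent support.

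Among the 30641 tested sense probes ranked from the lowest mean ratio, Pram_12193 was number 10, Pram_13641 number 13, Pram_11310 number 17 and Pram_01577 number 147. Pram_31070 was number 7 and Pram_31475 number 482. All 4 CRA1 contigs were thus among the 17 lowest mean ratios of the tested sense probes, and both PAP85 contigs stood further inside the lower tail. Pram_11310, Pram_12193, Pram_01577 and Pram_31475 entered this ranking through the control group alone, where they were high, which favours a low ratio. The contigs also come from a list drawn up in part from these samples, so that the ranks lend no support of their own.

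**Figure D2:**
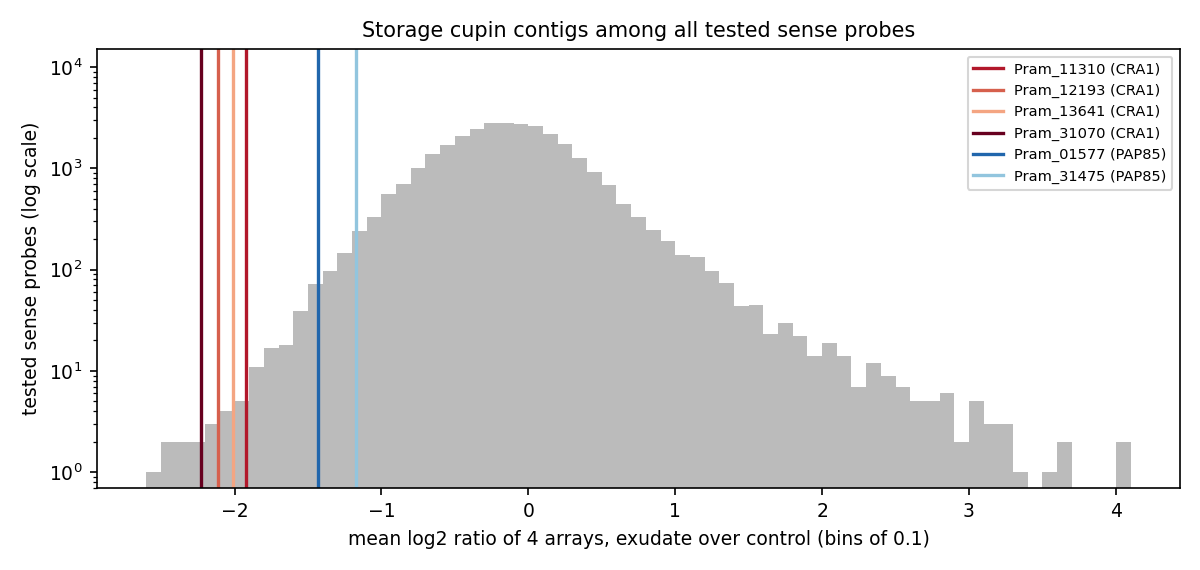
Number of tested sense probes (log scale) by mean log2 ratio of exudate over control in bins of 0.1, with a line for each CRA1 or PAP85 contig. The 4 CRA1 lines stand between -2.23 and -1.92 and the PAP85 lines at -1.43 and -1.17, while the median of all 30641 probes is -0.14. Pram_11310, Pram_12193, Pram_01577 and Pram_31475 are among the tested probes through the control group alone.

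Each contig also had a partner probe of the complementary strand, named by the suffix _r and called antisense here. These probes were tested among 16075 antisense probes, of which 0.18% (29 probes) were called lower, and 1 of the 4 partner probes was called. The partner of Pram_11310 had levels of 8.66, 10.25, 10.97 and 8.77 in the exudate samples, against 11.42, 10.60, 11.84 and 11.52 in the control samples. Its exudate samples were low on arrays 1 and 4 and near their controls on array 2, and the groups overlapped. The mean log2 ratio was -1.68 ± 1.26 (SD, n = 4 arrays; limma adjusted p = 0.03009), the lowest mean ratio among the tested antisense probes. The call was lost without replicate 1 (log2 ratio -1.32, limma adjusted p = 0.203) and without replicate 4 (log2 ratio -1.32, adjusted p = 0.0595). It was also lost with no background correction (log2 ratio -1.61, adjusted p = 0.0669), and, at the reported ratio, with no filter on dim probes (adjusted p = 0.133) or no replicate block (adjusted p = 0.109).

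The other 3 partner probes did not pass the test. The mean log2 ratio was -0.93 ± 0.96 for the partner of Pram_12193 (limma adjusted p = 0.09789), -0.85 ± 1.12 for that of Pram_13641 (adjusted p = 0.1559) and -0.84 ± 0.75 for that of Pram_01577 (adjusted p = 0.08615). For all 4 partner probes both lowest ratios were those of arrays 1 and 4, whereas array 2 alone was nearest to 0 for each sense probe. On arrays 1 and 4 their ratios lay between -2.76 and -1.44, and on arrays 2 and 3 between -0.87 and 0.32. Over all tested antisense probes the median ratios of arrays 1 to 4 were 0.33, 0.26, 0.59 and -0.04. Over all tested sense probes they were -0.21, -0.09, -0.29 and -0.02. The partner probes of Pram_13641 and Pram_01577 had a single spot on each array, so that their values rest on fewer measurements than those of the sense probes.

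The sense ratio was lower than the antisense ratio on 4 of 4 arrays for Pram_12193, with a mean difference of -1.18 ± 0.77, and for Pram_01577, with -0.59 ± 0.39 (exact two-sided p = 0.125 each). For Pram_13641 and Pram_11310 it was lower on 3 of 4 arrays, with mean differences of -1.16 ± 1.12 (exact two-sided p = 0.25) and -0.24 ± 0.86 (exact two-sided p = 0.625). After adjustment over the 7 differences the exact p were between 0.292 and 0.625, and no such test could have passed 0.05 with 4 arrays. Over all tested probes the sense median was itself below the antisense median on arrays 1 to 3, an offset that these differences include. With loess per strand, the sense and partner ratios were -1.31 and -1.26 for Pram_01577, and -1.80 and -2.08 for Pram_11310. They were -1.99 and -1.22 for Pram_12193, and -1.92 and -1.26 for Pram_13641. Whether the antisense signal comes from antisense transcripts or from labelled products of the sense transcripts was not tested.

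**Figure D3:**
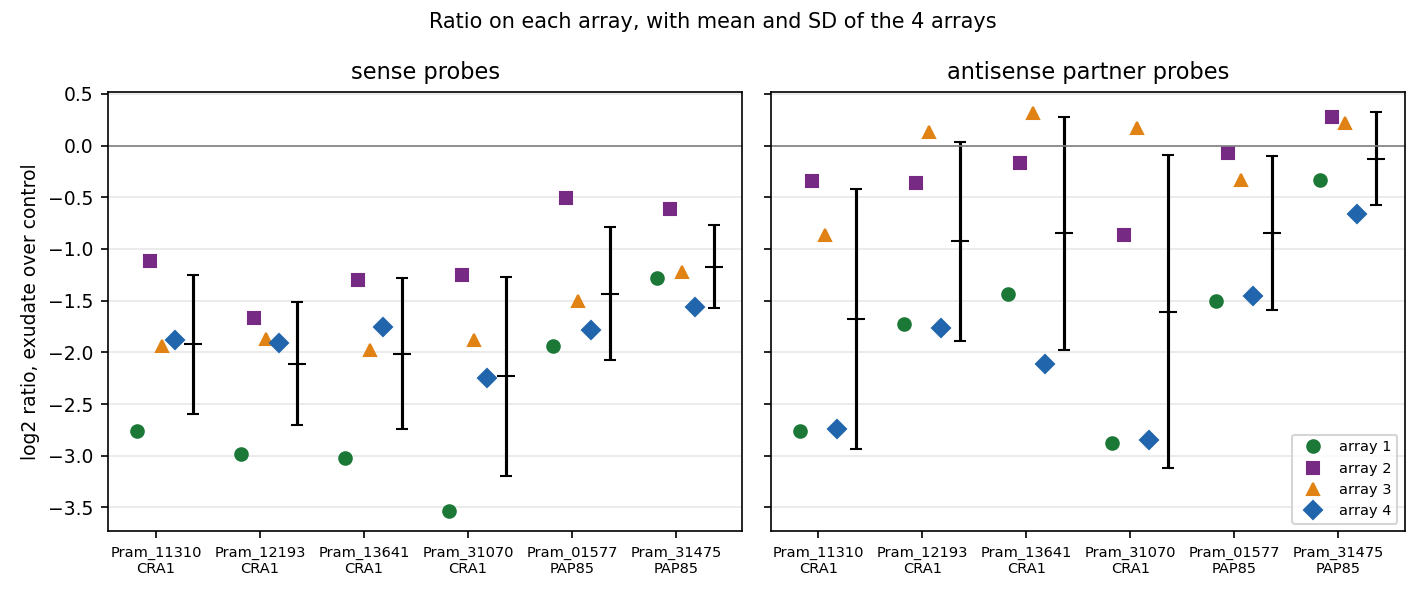
Log2 ratio of exudate over control on each of the 4 arrays for the sense probes (left) and the antisense partner probes (right), with mean ± SD (n = 4). All sense ratios are below 0, with array 2 nearest to 0, whereas the antisense ratios of the members are at -1.44 or lower on arrays 1 and 4 and at -0.87 or higher on arrays 2 and 3.

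In the hormone-related list, CRA1 stands among the abscisic acid genes and PAP85 among the cytokinin genes. Of the 23 other abscisic acid contigs, 16 were tested, of which 1 was lower and 5 were higher, with a median log2 ratio of 0.49. Of the 16 other cytokinin contigs, 15 were tested, of which 3 were lower and 5 were higher, with a median of 0.37. Over the 73 other contigs of the whole list, 56 were tested, of which 8 were lower and 23 higher, with a median of 0.47. Of all 30641 tested sense probes, 3922 (12.8%) were lower and 1569 higher, with a median of -0.14. The lowest of them, Pram_17697, had a mean log2 ratio of -2.01, within the range of the CRA1 members. The storage cupin contigs thus ran in the other direction from the median of either list section, and these lists, too, were drawn up in part from these samples.

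The list also holds 2 peroxisomal enzymes whose Arabidopsis counterparts act when seed oil is used up after germination. Pram_46897 (PKT3), a thiolase of fatty acid beta-oxidation, had array log2 ratios of -1.17, -0.51, -0.97 and -1.04, averaging -0.92 ± 0.29 (SD, n = 4; limma adjusted p = 0.01063). Pram_10897 (PMDH2), a peroxisomal malate dehydrogenase, had array log2 ratios of -1.03, -0.85, -0.96 and -0.48, averaging -0.83 ± 0.24 (SD, n = 4; limma adjusted p = 0.01437). Both were called lower, with mean ratios nearer to 0 than those of all 4 cupin members. They are among the 8 lower calls of the 56 other tested contigs of the list, of which 23 were higher. Of all tested sense probes, 12.8% were called lower. The 2 enzymes were named with earlier results of these data known, and a link to the storage cupins was not tested.

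Contigs with the most similar ratios were found by the root mean square difference over the 4 arrays, among 30635 other tested sense contigs. Nearest to the CRA1 mean were Pram_32750, with a difference of 0.24, and Pram_25911 and Pram_13821, with 0.27 each. Nearest to the PAP85 contig were Pram_19790, Pram_38772 and Pram_30803, with differences of 0.09, 0.10 and 0.12. For comparison, PAP85 itself differed from the CRA1 mean by 0.69 on this measure, and Pram_31070 by 0.37. None of the 6 contigs has a gene name in the list used here. These differences describe 4 arrays and carry no test.

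The ratios of the 4 members were below 0 under each of the 16 other ways of processing in which they could be tested. Pairing the deposited log2 values by column number removed all 4 calls, with mean log2 ratios between -1.97 and -1.30 and limma adjusted p between 0.324 and 0.39. In that fit 0 of the tested sense probes were called, and 3854 had an unadjusted limma p below 0.05. With the same deposited values paired by the array that each column follows, all 4 members were called lower, against 12.4% of the tested sense probes.

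**Figure D4:**
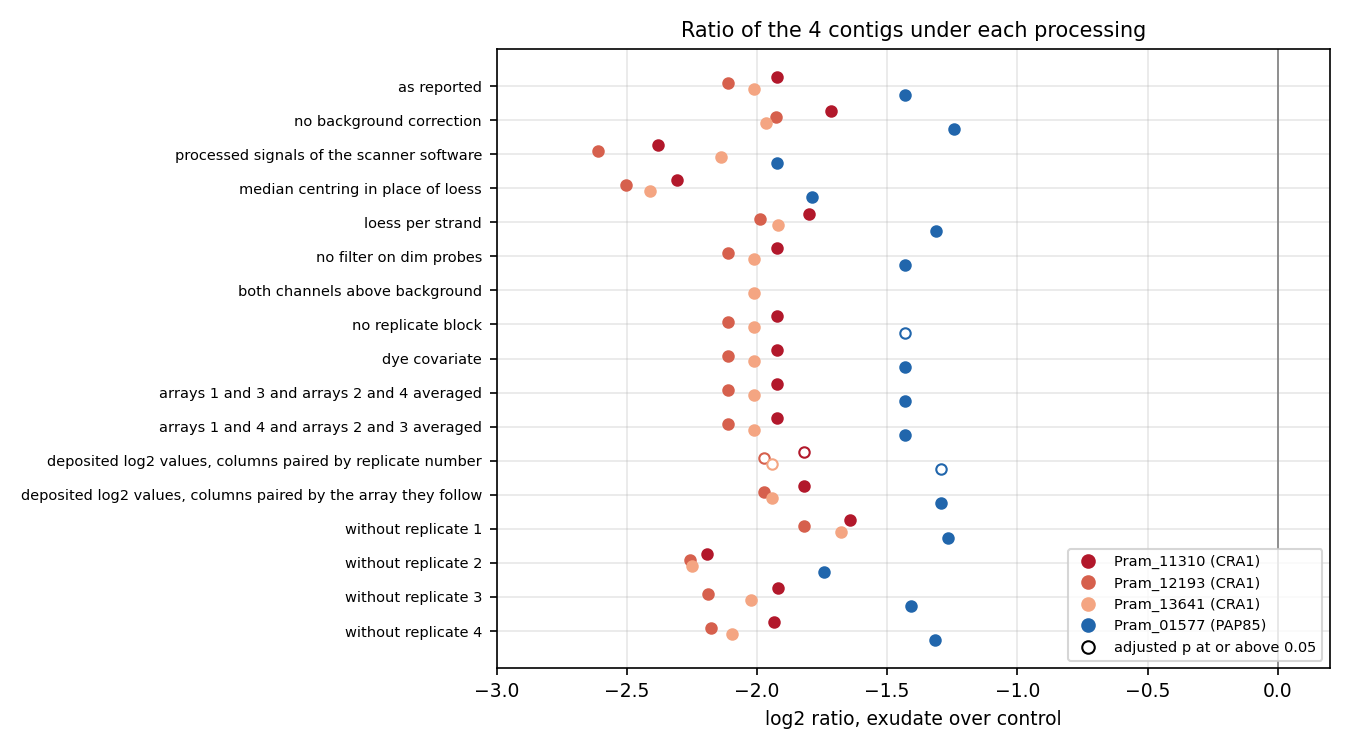
Mean log2 ratio of exudate over control of the 4 members as reported and under each other way of processing, with open points for an adjusted p at or above 0.05. All points are below 0, and the open ones are those of the deposited values paired by column number and of Pram_01577 without the replicate block.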

How the data were processed

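RNA of 4 exudate-treated and 4 control samples was hybridized in pairs to 4 two-colour arrays of 60-mer probes designed on an assembled transcriptome. The authors deposited the scanner output (Agilent Feature Extraction 11.5.1.1, per the file headers), from which the median intensity and local background intensity of each spot and channel and the quality flags were used. They also deposited log2 values of the sense probes, with 0 unused sample columns; their normalization is not given in the sources used here beyond the mention of limma in the submitters' processing notes, and they served as an alternative.

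The analysis used limma 3.58.1 in R 4.3.3. Intensities were background corrected by normexp (offset 50) and normalized by loess within arrays (span 0.3, 4 iterations) with control spots at zero weight. Spots with outlier flags were left out, saturated spots kept, and the spots of a probe averaged. The sign of swapped arrays was turned so that each ratio is exudate over control. Single-channel levels followed loess and Aquantile normalization. Testing required a probe to exceed background clearly (scanner flag, every spot) in all 4 samples of 1 group or of both. Tests were lmFit and eBayes on the 4 ratios, with Benjamini-Hochberg adjustment over all sense or all antisense probes. Calls needed an adjusted p below 0.05, together with a fold of 1.5 or more (higher) or 0.75 or less (lower). The ratio pairs the samples of an array, which is where the pairing comes from. Deviations from the group means correlated between both channels with r of 0.22 (array 1), 0.24 (array 2), 0.75 (array 3) and -0.24 (array 4), across probes, which are not independent replicates. Against exudate channels of other arrays the highest r of the control channels was 0.30, 0.66, -0.32 and 0.19, which is above the r within the array for arrays 1, 2 and 4. These correlations therefore give no evidence for the pairing. The steps were tested on simulated data. Slide and scan could not be tested as batches, because the 4 arrays shared them.

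The genes named were the 4 members, the other contigs of the same annotation, PKT3, PMDH2 and the 3 contigs nearest to the CRA1 mean and to PAP85. Members and lists were chosen with earlier results of these data known. Alternatives concerned the background correction, scaling, filter, block, dye, averaging of dye swaps, deposited values and each array left out. Probe sequences and gene names of other contigs were not used here.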

Additional observations from a re-analysis of the deposited data

How the results depend on the processing

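The members were called lower in 4 of 4 cases in 13 of the 16 alternatives. In these 13 the share of all tested sense probes called lower ranged from 0.763% to 14%. The former was without replicate 1, the latter with arrays 1 and 3 and arrays 2 and 4 averaged. Both fits on averaged arrays rest on 2 values per probe. Where both channels had to be above background, 1 of 1 testable member was called, since the other 3 were dim in the exudate channel of array 3. With the deposited values paired by column number, 0 members were called, at log2 ratios of -1.82 (Pram_11310), -1.97 (Pram_12193), -1.94 (Pram_13641) and -1.30 (Pram_01577), with limma adjusted p of 0.324, 0.324, 0.324 and 0.39. The count of sense probes at an unadjusted p below 0.05 was 3854 in that fit, and the cause was not tested. With no replicate block, 3 members were called, and Pram_01577 kept its ratio of -1.43 at an adjusted p of 0.0582. Leaving out each replicate in turn kept all 4 calls, with ratios between -2.19 and -1.64 for Pram_11310, -2.26 and -1.82 for Pram_12193, -2.25 and -1.68 for Pram_13641, and -1.74 and -1.27 for Pram_01577. Called antisense partner probes numbered 1 as reported, and 0 with no background correction, no filter on dim probes or no replicate block. They numbered 2 with loess per strand or both channels above background, and 3 with the processed signals of the scanner software. With median centring or a dye covariate the count was 1, and with a replicate left out 0 to 2. Averaging arrays 1 and 3 and arrays 2 and 4 gave 4, and averaging arrays 1 and 4 and arrays 2 and 3 gave 1. Each mean of the former joined a low and a higher partner ratio, which narrowed the spread. No share of all antisense probes was set beside these counts. Background correction, signal column and normalization moved the median of the tested sense probes, from which the members differed by -1.97 (Pram_12193), -1.87 (Pram_13641), -1.78 (Pram_11310) and -1.29 (Pram_01577) as reported and by -2.34 to -1.13 over their alternatives (-1.13 for Pram_01577 with no background correction, -2.34 for Pram_12193 with the processed signals). All sense probes called lower and higher numbered 3922 and 1569 as reported, 3673 and 335 with median centring, and 2583 and 2363 with loess per strand. The count of lower calls was 2387 with no background correction, 1442 with no filter on dim probes, 2517 with both channels above background, 1579 with no replicate block, 2369 with a dye covariate, and 238 to 4345 with a replicate left out (238 without replicate 1). Signal over background in the exudate channel of array 3 limits the ratios of dim members, and 4 arrays limit the precision of all values.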
